A study of Rattus norvegicus with 6 samples.

Results

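The interleukin-6 (IL-6) family cytokines, the colony-stimulating factors (CSFs) and the receptor chains of the IL-6 family were examined in neonatal rat cardiac fibroblasts (NRCFs). The set held 10 genes of the 21857 symbols in the count files. It comprised 6 ligands (Il6, Lif, Il11, Csf3, Csf1 and Csf2) and 4 receptor chains (Il6st, Osmr, Lifr and Il6r). These genes were chosen with their difference between the groups known, so their own values are given as a description without a test.

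NRCFs were grown from hearts of healthy rats taken no later than 3 days after birth. The series text calls the animals Sprague-Dawley, whereas the strain field of the libraries reads Noway. All cells were transfected with a plasmid by lipofection. Vector cells (3 libraries, genotype label WT) received the empty plasmid, and the cells of the other 3 libraries (genotype label FTO overexpression) received the plasmid carrying the rat coding sequence of FTO, a demethylase of N6-methyladenosine in RNA. The study isolated the cells by differential adhesion, a step that can leave other heart cells in the culture. No source says whether the 3 libraries of a group came from separate cultures or animals, so p-values measure only the spread between these libraries, which may be technical.

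IL-6 family cytokines signal through receptor complexes that share gp130, the chain encoded by Il6st. IL-6 and IL-11 first bind their own α receptors, whereas leukemia inhibitory factor (LIF) and oncostatin M bring gp130 together with the LIF receptor or the oncostatin M receptor, and the JAK kinases bound to these chains then activate STAT3. The CSFs use other receptors and are known for driving the growth of macrophages (Csf1), of granulocytes and macrophages (Csf2) and of neutrophils (Csf3), and fibroblasts are a known source of both kinds of cytokine.

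The libraries held 13178952 to 17857999 counted reads. Fto itself was at 87.8, 89.6 and 87.4 CPM (counts scaled to library depth with the TMM factors of edgeR) in Vector replicates 1, 2 and 3 and at 93.2, 90.8 and 92.9 CPM in the libraries labelled FTO. The difference was 0.06 (SE 0.0468) on the log2 scale and did not pass the test (edgeR quasi-likelihood test, adjusted p = 0.239, 95% confidence interval of the fold 0.976 to 1.12). Because the targeted transcript was not detectably raised in these counts, this group is called the libraries labelled FTO throughout. The study reports checks of the FTO transfection by quantitative PCR and for FTO protein. It also reports less N6-methyladenosine on dot blots of cells given FTO. Whether those assays used the cells sequenced here is not stated. The first principal component separated the groups and held 94.3% of the variance. Of 8 fibroblast markers, 4 were higher and 4 lower. Dcn (decorin), at 47.0 ± 1.57 and 5611 ± 221 CPM, was 119-fold higher, Lum was 8.87-fold and Pdgfra 5.63-fold higher, whereas Col3a1, at 10699 ± 90.0 and 3338 ± 363 CPM, was 3.21-fold and Vim 2.53-fold lower, and the 8 summed to 14619 to 14709 CPM in the Vector libraries and 11988 to 12362 CPM in the others.

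All 6 ligands were higher in the libraries labelled FTO. Among the receptor chains, Il6st, Osmr and Lifr were higher and Il6r was lower. None of the 10 genes overlapped between the groups. Of the 12941 genes tested, 33.2% were called higher and 32.8% lower at an adjusted p under 0.05, 10.3% were called higher with at least a 2-fold change and 9.27% lower with at least a 2-fold change, and 70.3% did not overlap between the groups. At that 2-fold threshold, 5 ligands and 2 receptor chains were higher and none of the 10 was lower. All 10 genes were kept by the filter on low counts, Csf3 and Csf2 only through their counts in the libraries labelled FTO. Nothing is read from these counts, since the difference between the groups had been used in choosing the genes.

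**Figure D1:**
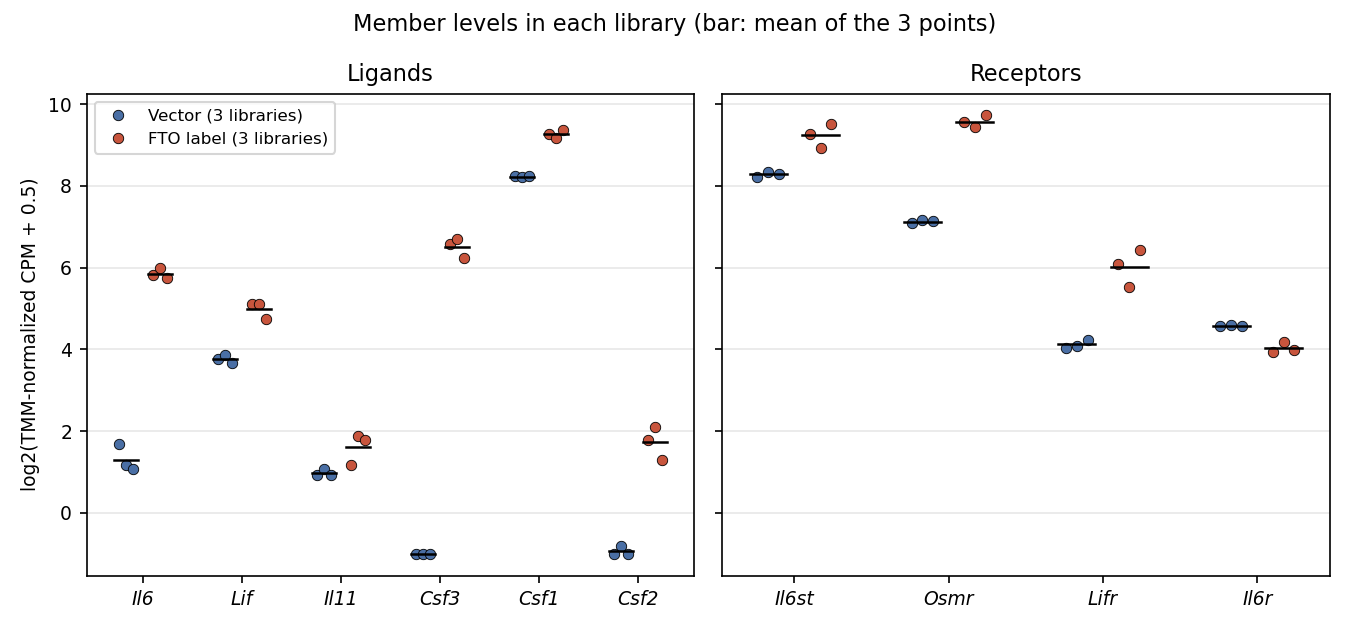
Level of each gene in each library as log2(TMM-normalized CPM + 0.5), with ligands on the left and receptor chains on the right; points are libraries and bars are means of 3. The red points (libraries labelled FTO) lie above the blue points (Vector) for all 6 ligands and for Il6st, Osmr and Lifr, and below them for Il6r.

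Il6, the founding cytokine of the family and an inducer of the acute phase response, was at 2.71, 1.74 and 1.59 CPM in Vector replicates 1, 2 and 3. It was at 56.3, 63.6 and 52.7 CPM in the libraries labelled FTO, in the same order of replicates. The groups were far apart, and Vector replicate 1 stood above the other Vector libraries. The means were 2.01 ± 0.604 and 57.5 ± 5.54 CPM (SD, n = 3), a fitted log2 difference of 4.84 (SE 0.138), or 28.6-fold (95% confidence interval 23.3 to 35.0). The Vector level rested on 23 to 37 reads a library.

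The bases before the Il6 start are shown because this promoter held matches to 3 of the motifs searched. The Il6st promoter also held matches to 3 of them and is not shown. Promoters were taken from RefSeq (GRCr8), which is another build than the rn6 of the counts, as windows of 250 bases before and 50 after the annotated start, and 7 of the 10 genes were matched (all but Lif, Csf3 and Csf1). The Il6 sequence lies on chromosome 4, minus strand (chr4:5894576-5894825). Capitals mark a match to the cAMP response element (CRE, TGACGTCA) at positions -162 to -155 and one to the NF-κB motif at -68 to -59, counted from the start.
Il6: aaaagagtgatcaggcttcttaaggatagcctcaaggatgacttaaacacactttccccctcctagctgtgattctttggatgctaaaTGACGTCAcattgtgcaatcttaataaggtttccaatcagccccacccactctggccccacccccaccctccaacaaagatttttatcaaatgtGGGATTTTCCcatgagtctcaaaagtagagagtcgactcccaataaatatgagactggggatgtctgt

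Lif, which keeps stem cells undifferentiated and acts on many tissues, was at 13, 14.1 and 12.3 CPM in the Vector libraries and at 34.1, 34.2 and 26.2 CPM in the libraries labelled FTO. The lowest of the latter, replicate 3, was still above every Vector library. The means of 13.1 ± 0.921 and 31.5 ± 4.56 CPM (SD, n = 3) gave a log2 difference of 1.25 (SE 0.110), or 2.39-fold (2.03 to 2.81).

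Il11, a cytokine known for its role in fibroblast activation, had the smallest difference of the 6 ligands. It was at 1.39, 1.61 and 1.39 CPM in the Vector libraries and at 1.75, 3.17 and 2.96 CPM in the libraries labelled FTO. Replicate 1 labelled FTO lay close to the highest Vector library, so the groups were separated by a narrow gap. The log2 difference was 0.85 (SE 0.267), or 1.80-fold (1.21 to 2.67), and rested on 19 to 24 reads in the Vector libraries and 25 to 53 in the libraries labelled FTO. Summed over Il6, Lif and Il11, the ligand level was 17.1, 17.4 and 15.2 CPM in the Vector libraries and 92.1, 101 and 81.9 CPM in the libraries labelled FTO.

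Csf3, the granulocyte CSF, had no read in any Vector library. In the libraries labelled FTO it was at 94.6, 103 and 74.6 CPM, from 1335 to 1361 reads. Set against the floor of 3 counts in the least deeply sequenced Vector library, the mean of 90.6 ± 14.5 CPM (SD, n = 3) was at least 413-fold higher. The floor, like the counting intervals given here, covers counting error only.

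Csf2, the granulocyte-macrophage CSF, had 0, 1 and 0 reads in Vector replicates 1, 2 and 3 and 42, 50 and 35 reads in the libraries labelled FTO. The latter were 2.95, 3.78 and 1.95 CPM. With a single read in the whole Vector group, the ratio of summed counts per depth was 120.3, with an exact 95% counting interval from 21.2 to 4789. The size of this difference is therefore poorly determined, although its direction was the same for every pair of libraries. The Csf2 promoter is shown because it was the only one of the 7 with a match to the STAT motif (TTCNNNGAA), at -228 to -220, in capitals. It lies on chromosome 10, minus strand (chr10:38889674-38889923).
Csf2: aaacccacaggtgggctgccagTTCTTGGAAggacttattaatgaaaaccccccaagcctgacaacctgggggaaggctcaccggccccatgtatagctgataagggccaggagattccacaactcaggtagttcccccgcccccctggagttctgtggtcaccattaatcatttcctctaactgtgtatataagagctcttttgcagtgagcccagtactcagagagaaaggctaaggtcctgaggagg

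Csf1, the growth factor of macrophages, was at 302, 296 and 300.5 CPM in the Vector libraries and at 614, 577 and 658 CPM in the libraries labelled FTO. The Vector libraries were nearly identical, and every library labelled FTO was higher. The log2 difference was 1.04 (SE 0.0477), or 2.06-fold (1.92 to 2.21). Unlike Csf3 and Csf2, Csf1 was thus well covered in both groups.

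Il6st, which encodes the shared chain gp130, was at 295, 326 and 310.4 CPM in the Vector libraries and at 619, 489 and 724 CPM in the libraries labelled FTO. Replicate 2 was the lowest and replicate 3 the highest of the latter, and both were above the Vector libraries. The means of 310.4 ± 15.2 and 611 ± 118 CPM (SD, n = 3) gave a log2 difference of 0.98 (SE 0.0974), or 1.97-fold (1.70 to 2.28).

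Osmr, the chain that pairs with gp130 for oncostatin M, had the largest difference among the receptor chains. It was at 135, 142 and 141 CPM in the Vector libraries and at 757, 689 and 845 CPM in the libraries labelled FTO. The gap between the groups was several times the spread within either. The log2 difference was 2.46 (SE 0.0635), or 5.49-fold (4.99 to 6.03). The Osmr promoter is shown with its match to the AP-1 motif (TGANTCA) in capitals, at -33 to -27. It lies on chromosome 2, minus strand (chr2:57688562-57688811).
Osmr: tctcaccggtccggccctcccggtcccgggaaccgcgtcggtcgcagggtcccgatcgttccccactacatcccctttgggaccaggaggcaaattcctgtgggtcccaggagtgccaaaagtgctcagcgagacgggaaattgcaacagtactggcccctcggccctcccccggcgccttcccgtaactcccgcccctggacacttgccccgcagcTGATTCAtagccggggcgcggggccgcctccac

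Lifr, the chain that pairs with gp130 for LIF, was at 15.9, 16.5 and 18.4 CPM in the Vector libraries and at 67.1, 45.3 and 86.1 CPM in the libraries labelled FTO. The latter spread widely, with replicate 3 highest and replicate 2 lowest, but none came near the Vector libraries. The log2 difference was 1.98 (SE 0.174), or 3.94-fold (3.04 to 5.10). The SD of log2 CPM for Lifr among the libraries labelled FTO was 0.463, and only 1.44% of the genes tested had a larger one.

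Il6r, the α receptor that binds IL-6 before gp130 joins, was the 1 gene of the set with a lower level. It was at 23.3, 23.7 and 23.5 CPM in the Vector libraries and at 14.7, 17.5 and 15.4 CPM in the libraries labelled FTO. The Vector libraries were almost equal, and all 3 libraries labelled FTO lay below them. The log2 difference was -0.57 (SE 0.0871), which is 1.48-fold lower (1.30 to 1.69).

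The receptor chains therefore differed in their proportions to gp130. These proportions are ratios of counts within a library, not corrected for transcript length, so each is compared only between libraries. The ratio of Osmr to Il6st was 0.449 ± 0.0104 in the Vector libraries and 1.27 ± 0.128 in the libraries labelled FTO (SD, n = 3), 2.82-fold higher. The ratio of Lifr to Il6st was 1.96-fold higher. The ratio of Il6r to Il6st was 0.0757 ± 0.00303 and 0.0270 ± 0.00777, which is 2.81-fold lower. The groups did not overlap for any of these ratios. Nothing is read from this, since the genes were chosen with their difference between the groups known. Lifr relative to Osmr was 1.42-fold lower, and Il6r relative to Osmr was 8.02-fold lower.

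**Figure D2:**
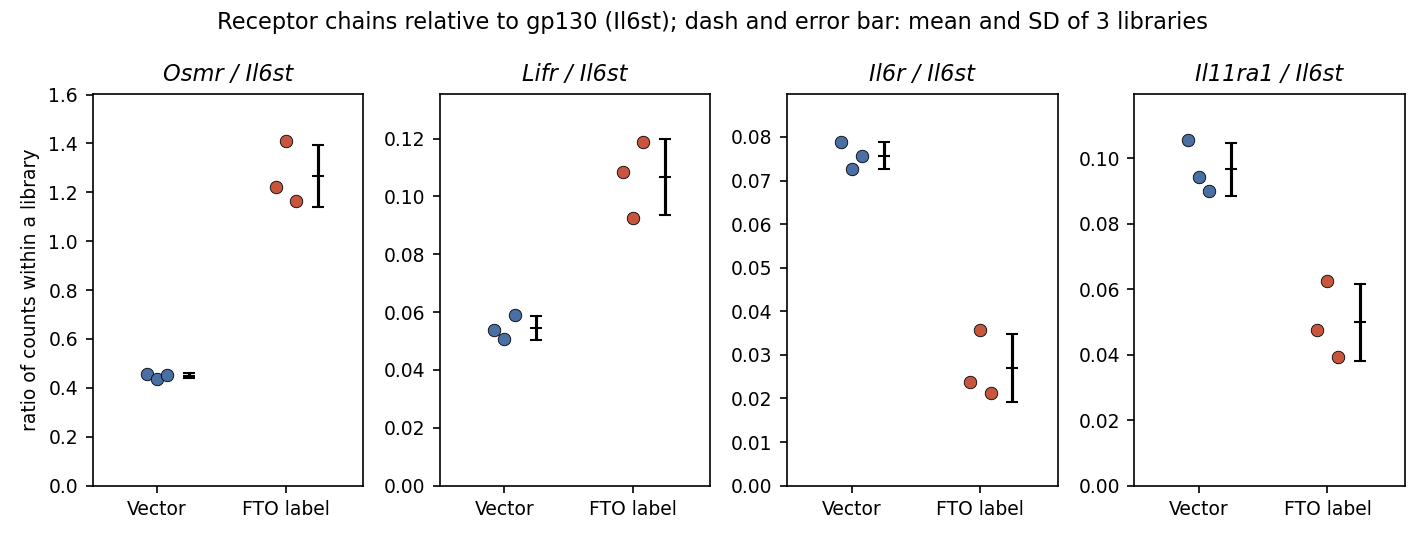
Counts of 4 receptor chains divided by the counts of Il6st in the same library, without correction for transcript length; points are libraries, and the dash and bar give the mean and SD of 3. The libraries labelled FTO (red) lie above Vector (blue) for Osmr (mean 1.27 against 0.449) and Lifr, and below it for Il6r (mean 0.0270 against 0.0757) and Il11ra1.

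The genes fell into 3 orders among the libraries labelled FTO. Il6, Lif, Csf3 and Csf2 were highest in replicate 2 and lowest in replicate 3, an order held by 23.1% of the genes tested. Csf1, Il6st, Osmr and Lifr were highest in replicate 3 and lowest in replicate 2, as were 22.9% of the genes tested. Il11 and Il6r were highest in replicate 2 and lowest in replicate 1, as were 14.5%. Replicate 3 was the most deeply and replicate 2 the least deeply sequenced library, and the part of depth in these orders was not tested.

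The genes whose pattern over the 6 libraries was most like that of Il6 were Aim2, Scin and XAF1, with root mean square distances of 0.0858, 0.123 and 0.138 between centred log2(CPM + 0.5) values. For Il6st they were Tnxb, Cdon and Nebl, with distances of 0.0671, 0.0704 and 0.0755. In the Vector libraries Aim2 had 8, 4 and 3 reads and Scin 9, 3 and 1. Their Vector means of 0.354 and 0.310 CPM were below the 0.5 added, which lessens differences at such levels. The fitted folds were 51.1 for Aim2, 57.8 for Scin and 25.9 for XAF1, next to 28.6 for Il6. The distances also include the difference between the groups, which had been used in choosing Il6 and Il6st.

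The remaining genes of the pathway were examined from lists of what is known of it, which were drawn up with earlier results of these data known. Their counts and p-values below therefore describe the genes listed and are not independent support. Of 56 genes listed, 55 were in the files and 50 were tested. In the libraries labelled FTO, 32 of the 50 were higher and 12 were lower, next to the 33.2% and 32.8% of all genes given above, and 6 did not pass the test.

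Among the other ligands of the family, 4 of 6 tested were higher and 2 were lower. Clcf1, a cardiotrophin-like cytokine, was at 6.12 ± 1.37 CPM in the Vector libraries and 17.5 ± 2.29 CPM (SD, n = 3) in those labelled FTO, 2.87-fold higher (edgeR adjusted p = 3.31e-07), and Ebi3, a subunit shared by IL-27 and IL-35, rose 3.58-fold (edgeR adjusted p = 2.19e-07). Osm, which encodes the ligand of the oncostatin M receptor, went the other way to Osmr. It had 17, 22 and 30 reads in the Vector libraries and 5, 5 and 6 in the libraries labelled FTO, 4.46-fold lower (edgeR adjusted p = 0.000117). Ctf1 (cardiotrophin 1) fell 1.75-fold (edgeR adjusted p = 0.00592).

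Of the other family receptors, Il11ra1, the α receptor for IL-11, was at 29.9 ± 1.71 and 29.6 ± 1.09 CPM, a log2 difference of -0.02 (SE 0.0725, edgeR adjusted p = 0.819). Relative to Il6st it was 1.94-fold lower. Il27ra, the receptor of IL-27, was 4.28-fold lower (edgeR adjusted p = 8.42e-06).

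The receptors of the 3 CSFs differed between the groups in both directions. Csf1r, the receptor of Csf1, was at 144, 139 and 143 CPM in the Vector libraries and at 10.5, 9.21 and 7.87 CPM in the libraries labelled FTO, 15.6-fold lower (edgeR adjusted p = 9.67e-16). Csf1r is also a marker of macrophages. The 13 macrophage markers tested, Csf1r among them, included 11 that were lower and 2 that were higher (Adgre1 and Cd74). Of all genes tested, 32.8% were called lower and 33.2% higher. The markers summed to 1805 to 1863 CPM in the Vector libraries and 302 to 339 CPM in the libraries labelled FTO. Lyz2 alone was at 1117 ± 22.8 and 97.6 ± 5.80 CPM (SD, n = 3). The lower markers ranged from 1.67-fold (Cd14) to 204-fold lower (C1qb, with 1, 1 and 2 reads in the libraries labelled FTO). In bulk RNA, fewer cells of a type and less RNA per cell cannot be told apart. Il34, the other ligand of the receptor encoded by Csf1r, rose 3.17-fold (edgeR adjusted p = 1.03e-05).

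Csf2rb, the signalling chain for Csf2, was at 11.3, 10.3 and 11.4 CPM in the Vector libraries and at 469, 508 and 515 CPM in the libraries labelled FTO, 45.2-fold higher (edgeR adjusted p = 2.99e-18). Csf2ra, the chain specific to Csf2, fell 1.87-fold (edgeR adjusted p = 1.5e-06). The ratio of Csf2ra to Csf2rb counts was accordingly 83.4-fold lower. Csf3r, the receptor of Csf3, had 9, 12 and 13 reads in the Vector libraries and 2, 1 and 1 in the libraries labelled FTO and was removed by the filter on low counts in the main analysis. With no filter it was tested and was lower, with a log2 difference of -3.05 (edgeR adjusted p = 0.00025). The ratio of its summed counts per depth was 8.97 in favour of Vector, with an exact 95% counting interval from 3.20 to 34.8. Of the 6 neutrophil markers, which include Csf3r, S100a8 was the 1 tested in the main analysis. It was higher, with 3, 7 and 2 reads in the Vector libraries and 27, 31 and 29 in the libraries labelled FTO. S100a9 had 1 read in all, in a library labelled FTO. Cxcr2 had no read in the Vector libraries and 7, 0 and 3 in the libraries labelled FTO. Mpo and Elane were at 0 in every library.

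**Figure D3:**
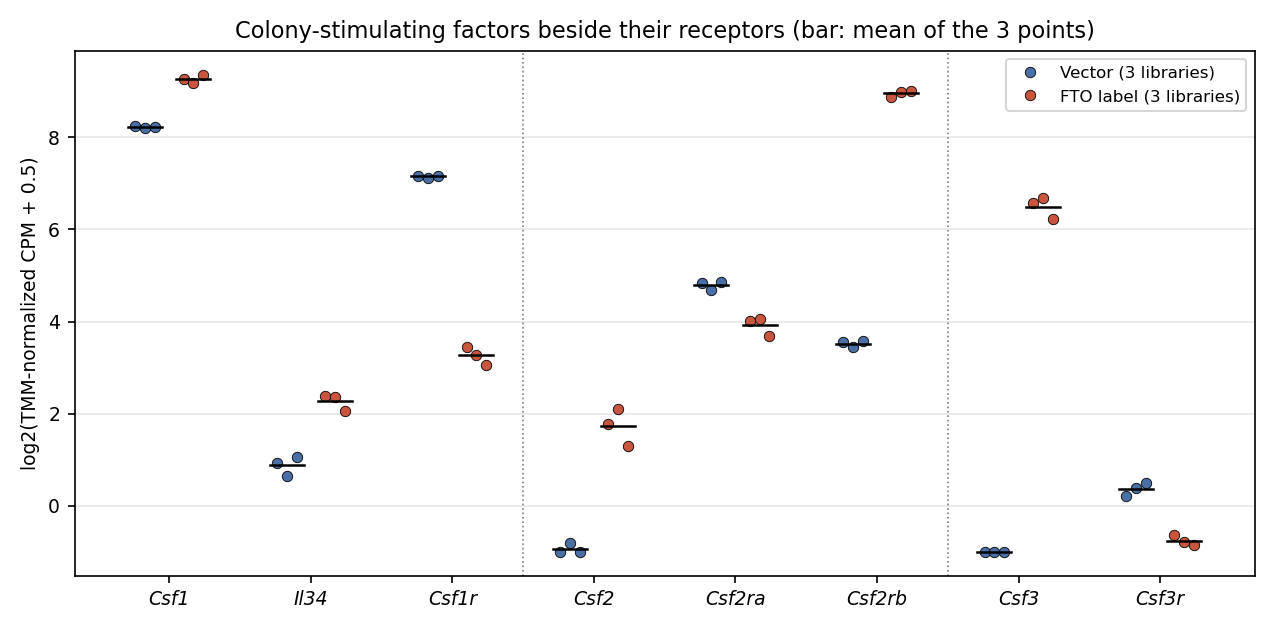
Levels of the CSFs and Il34 beside their receptors as log2(TMM-normalized CPM + 0.5) in each library; dotted lines separate the 3 ligand and receptor sets, points are libraries and bars are means of 3. Csf1, Il34, Csf2, Csf2rb and Csf3 lie higher in the libraries labelled FTO (red), and Csf1r, Csf2ra and Csf3r lie lower.

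Among 10 JAK-STAT transducers, 5 were higher and 2 lower, with a median log2 difference of 0.05 next to 0.00 over all genes tested. Jak2, a kinase used by gp130 and by the Csf2 receptor, was at 98.1 ± 3.62 and 808 ± 29.2 CPM, 8.24-fold higher (edgeR adjusted p = 6.93e-17). Stat3, the main transcription factor of the IL-6 family, rose 1.97-fold (edgeR adjusted p = 9.16e-12). Jak1, the kinase most closely tied to gp130, was at 405 ± 4.30 and 388 ± 33.3 CPM and did not pass the test (edgeR adjusted p = 0.310). Without replicate 3 of the libraries labelled FTO it passed as lower, with a log2 difference of -0.12 (edgeR adjusted p = 0.0185).

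Of 9 feedback inhibitors, 5 were higher and 3 lower, with a median log2 difference of 0.63. Socs3, which binds gp130 and limits its signal, was at 12, 13.3 and 10.7 CPM in the Vector libraries and at 66.7, 68.9 and 74.9 CPM in the libraries labelled FTO, 5.86-fold higher (edgeR adjusted p = 4.64e-13). Ptpn1, a phosphatase of JAK kinases, rose 3.50-fold (edgeR adjusted p = 1.91e-13). Ptpn6, a phosphatase found mostly in blood cells, fell 3.63-fold (edgeR adjusted p = 1.85e-10), and Socs2 and Pias3 also fell.

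Of 17 genes listed as STAT3 targets, 14 were higher and 2 lower, with a median log2 difference of 1.62. Many of them are also known targets of NF-κB or C/EBP factors. Lcn2, the iron-binding lipocalin 2, was at 1.83, 1.68 and 3.05 CPM in the Vector libraries and at 3427, 3844 and 3180 CPM in the libraries labelled FTO, a log2 difference of 10.63 (SE 0.12, edgeR adjusted p = 2.32e-18). Hp (haptoglobin) rose 297-fold (edgeR adjusted p = 2.32e-18), Steap4 (a metalloreductase) 344-fold (edgeR adjusted p = 1.52e-18) and Lbp (lipopolysaccharide-binding protein) 17.4-fold (edgeR adjusted p = 1.31e-16). Timp1, an inhibitor of matrix metalloproteinases, rose 7.97-fold (edgeR adjusted p = 3.37e-17). Hif1a rose 3.69-fold (edgeR adjusted p = 5.51e-15), Il4r 3.07-fold (edgeR adjusted p = 4.83e-14) and Vegfa 1.11-fold (edgeR adjusted p = 0.0107). Fos, an AP-1 subunit, fell 4.30-fold (edgeR adjusted p = 6.98e-10), and Bcl2l1 fell 1.15-fold (edgeR adjusted p = 0.00224). Adam17 and Adam10, proteases that shed receptors such as that of IL-6 from the cell surface, rose 2.09-fold (edgeR adjusted p = 1.34e-11) and 1.17-fold (edgeR adjusted p = 0.00439).

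**Figure D4:**
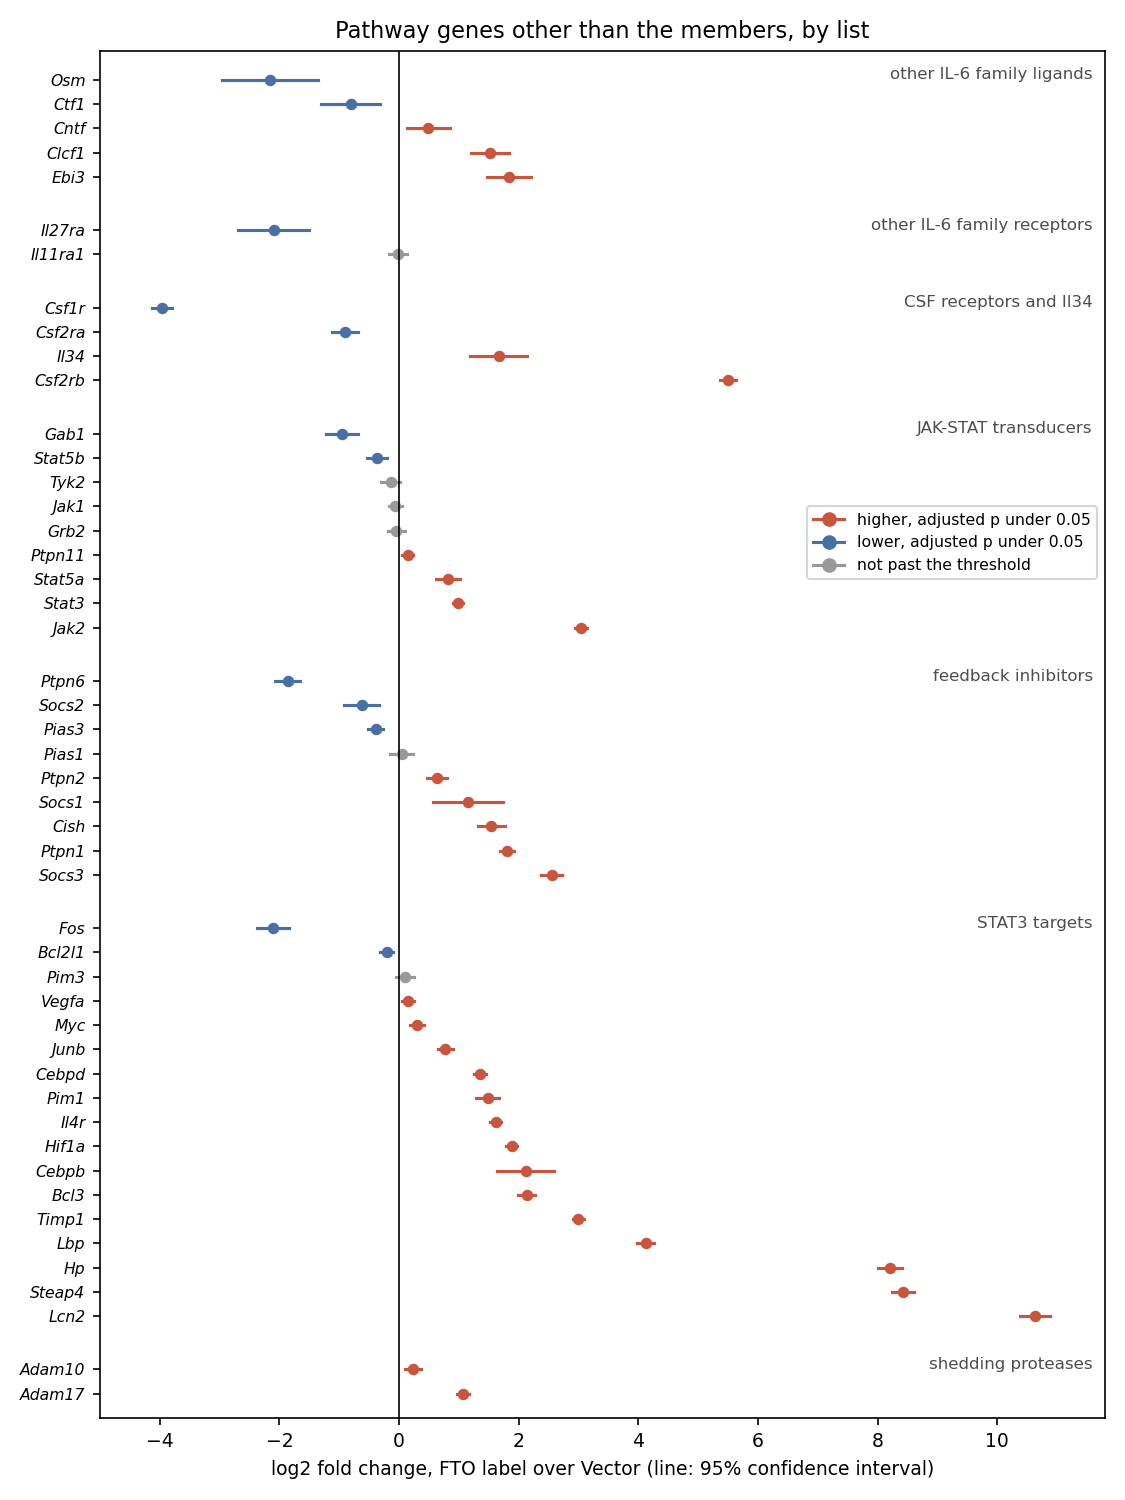
Fitted log2 fold change (positive where the FTO label is higher than Vector) for the pathway genes reported outside the set of 10, grouped by list, with 95% confidence intervals; red points are higher and blue points lower at an adjusted p under 0.05, grey points did not pass. The STAT3 targets reach the highest values, led by Lcn2 at 10.63, and Csf1r has the lowest at -3.96.

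Gene neighbours were taken from RefSeq and were looked up after the values were seen. Of all genes tested, 33.2% were called higher and 32.8% lower. Whether neighbours differed together more often than that was not tested. Osmr and Lifr are next to each other in the rat genome. Rictor, on the other side of Osmr, had a log2 difference of 0.13 (edgeR adjusted p = 0.382), and Egflam, on the other side of Lifr, had one of -0.65 (edgeR adjusted p = 0.0400). Lif and Osm are also neighbours and differed in opposite directions, as did Csf1 and Ahcyl1 (-0.14, edgeR adjusted p = 0.00893). Other neighbours differed in the same direction as the gene beside them. These were Ankrd55 beside Il6st (2.49, edgeR adjusted p = 1.05e-06), Med24 and Psmd3 on either side of Csf3 (1.47 and 0.66, edgeR adjusted p = 5.93e-12 and 1.25e-08) and P4ha2 beside Csf2 (0.76, edgeR adjusted p = 3.13e-10). Dnajb6 beside Il6 (0.57, edgeR adjusted p = 4.33e-08) and Atp8b2 beside Il6r (-0.75, edgeR adjusted p = 9.86e-10) did so too. Tmem190 beside Il11 was at 0.59 and did not pass the test (edgeR adjusted p = 0.171). Csf2 lies next to Il3, which had no read in the Vector libraries and 0, 2 and 3 reads in the libraries labelled FTO.

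Motif matches differed between the 7 promoters. Motifs were searched on both strands, and no match overlapped a match to another motif. The NF-κB motif was matched in 2 of the 7 (Il6 and Il6st), next to 7.51% of 33469 promoters of the same length, and the AP-1 motif in 2 (Il11 and Osmr), next to 7.33%. The CRE was matched in Il6 only (1.83% of all promoters), the STAT motif in Csf2 only (8.87%) and the interferon-stimulated response element (ISRE, GAAANNGAA) in Il6st only (9.71%), at -238 to -230 and -120 to -112. The C/EBP motif (TTNNGNAA) was matched in 5 of the 7, next to 41.3% of all promoters. The TATA motif (TATAAA) was matched in none of the 7 (14.2% of all promoters). Only these exact letters were searched, and close variants, such as the tatataa in the Csf2 sequence above, were not counted. Such matches describe the letters in these windows and are not binding sites.

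**Figure D5:**
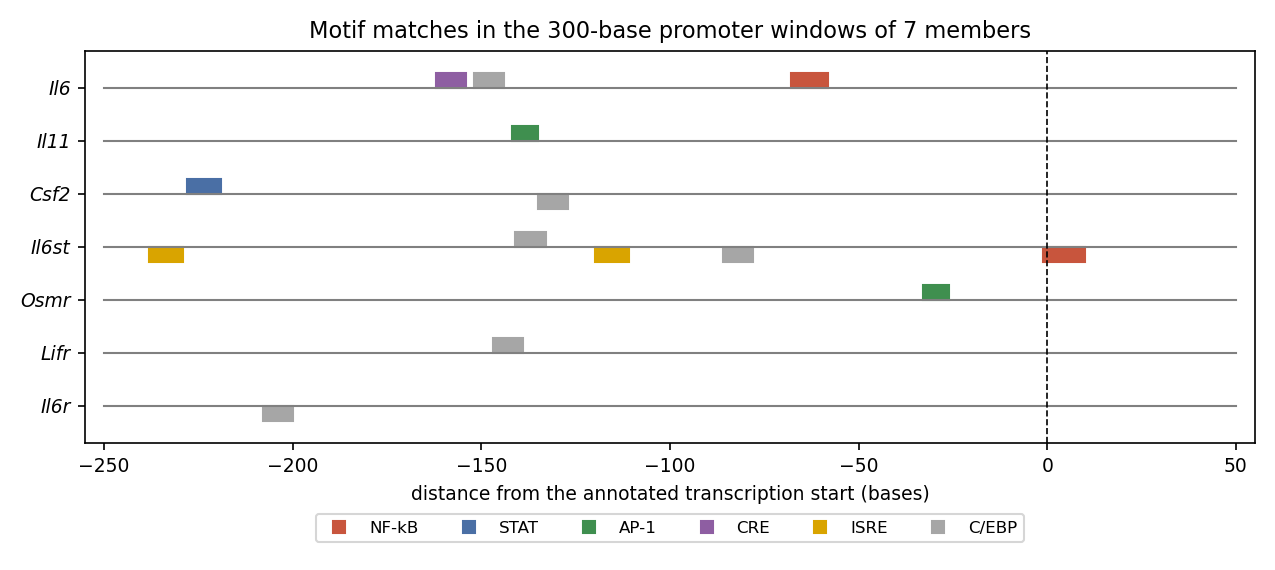
Motif matches in the promoter windows of the 7 genes with a RefSeq promoter, by distance from the annotated transcription start in bases; boxes above the line are on the strand of the gene and boxes below it on the other strand. Il6 holds CRE, C/EBP and NF-κB matches, and the C/EBP motif, matched in 5 of the 7, is the most frequent.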

How the data were processed

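Total RNA of 6 NRCF libraries was sequenced on an Illumina instrument after library preparation with a NEBNext kit. Per library, the authors deposited a list of raw read counts by gene symbol. The submitters' processing notes name Trimmomatic and the rn6 build, and the aligner, counter, annotation and use of strand are not given in the sources used here. Counts of overlapping or near-identical genes are uncertain to that extent. The genotype label set the group of a library and its title the replicate number.

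Genes were filtered with filterByExpr (minimum count 10), which kept 12941 of 21857 symbols, 4691 of which had no count. Libraries were scaled by TMM (factors 0.995 to 1.005) and compared with the two-sided quasi-likelihood test of edgeR 4.0.16 in R 4.3.3. Benjamini-Hochberg adjusted p-values, computed over every gene tested, were called under 0.05. The study gives a log2 fold change of at least 1 as its limit, which was used as a second rule. A floor of 3 counts was worth 0.168 to 0.227 CPM. Within groups, chi-square per degree of freedom between pairs of libraries was 1.56 to 8.02, a wider spread than counting error alone gives. No reference for split or repeated libraries was computed, so it does not tell how separately the replicates were prepared.

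The members and lists were chosen with earlier results of these data known. All 10 genes were named. Pathway genes were named from their lists mainly by mean CPM, with some passed over and further ones singled out after their values were seen. The 3 genes closest in pattern were named for Il6 and Il6st. Il4ra was matched as Il4r. Mcl1 and Itgam are not analysed here, and 2 genes of the pathway lists are counted but not reported here. The other marker lists (T and mast, endothelial, cardiomyocyte and mural cells) are given in the closing section.

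Alternatives were DESeq2 1.42.0, limma-voom (limma 3.58.1), DESeq2 size factors, library size alone, no filter, a mean of at least 10 counts, a replicate block and 6 fits that each left out 1 library. The scripts were tested on simulated data. Promoter sequences came from RefSeq, GRCr8.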

Additional observations from a re-analysis of the deposited data

How the results depend on the processing

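Across the 13 alternatives, the number of pathway genes called ranged from 42 to 46, next to 44 as reported, and that of all genes from 7795 to 9009, next to 8531. Fto stayed between 0.05 and 0.08 on the log2 scale, with adjusted p from 0.182 to 0.450. The fitted fold changes of Csf3 and Csf2 moved with the tool, and their Vector groups held 0 and 1 reads. Without Vector replicate 2, the only Vector library with a Csf2 read, that fold change was 8.38 on the log2 scale, and without Vector replicate 1 that of Il6 was 5.09.

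Log2 differences of 4 pathway genes that had not passed the test changed sign. Leaving out 1 library at a time, Il11ra1 ranged from -0.070 to 0.0063 (positive without Vector replicate 1 and, at 0.0043, without FTO replicate 3) and Grb2 from -0.10 to 0.018 (positive without Vector replicate 2). Jak1 ranged from -0.12 to 0.0039 (positive without FTO replicate 2) and Pias1 from -0.043 to 0.11 (negative without FTO replicate 3). Cntf lost its call with DESeq2 (adjusted p = 0.0668), without Vector replicate 2 (0.0768), without FTO replicate 1 (0.0700) and without FTO replicate 3 (0.0632). Vegfa lost its call without Vector replicate 2 (0.0606) and without FTO replicate 1 (0.0677). Without FTO replicate 3, Jak1 and Tyk2 gained a call as lower, at adjusted p 0.0185 and 0.0351. The cause was not tested.

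A replicate block left 8399 genes called, 44 of them in the pathway lists. Deviations of libraries with the same number correlated at 0.0035, -0.079 and 0.035, and those with different numbers at -0.12 to 0.11. No pairing by number was therefore detected, and not every library correlated best with its own number. With 3 libraries per group, these values cannot tell whether the libraries were prepared in pairs. Csf3r, removed by the filter in the main analysis, was tested and called lower with no filter and in the 4 fits without Vector replicate 1 or without any 1 FTO replicate, with adjusted p from 0.00025 to 0.00175.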

Other observations

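Marker lists of other heart cells moved between the groups as well, and their part in the levels of the cytokines and receptors was not tested. Cardiomyocyte markers summed to 1308 to 1339 CPM in the Vector libraries and 2003 to 2056 CPM in the libraries labelled FTO, with 7 of 8 higher and 1 lower. Mural cell markers summed to 1482 to 1543 and 740.5 to 815 CPM, with 1 of 5 tested higher and 4 lower. Endothelial markers were low, at 24.5 to 25 and 53.4 to 55.9 CPM in sum, with 4 of 5 tested higher. T and mast cell markers summed to 8.59 to 9.33 and 2.18 to 2.60 CPM, all but a small part of which was Kit, and Cd3e, Cd3d and Cpa3 were at 0 in every library.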
